A study of Mus musculus with 178 samples.

Results

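The interleukin-1 and interleukin-33 system was followed here through 8 genes, chosen by symbol: the ligands Il1a, Il1b and Il33, the receptor antagonist Il1rn, the receptors Il1r1 and Il1rl1, the decoy receptor Il1r2 and the shared co-receptor Il1rap. All 8 were found among the 24421 gene symbols of each deposited table. They were read in 178 RNA-seq libraries of mouse tibialis anterior muscle, 137 of wild-type and 41 of CCR2KO mice, taken undamaged (called day 0 here) or 1 to 14 days after injection of the snake venom toxin notexin, which kills muscle fibres and is followed by regeneration. CCR2KO mice lack the chemokine receptor by which inflammatory monocytes reach damaged tissue. The sorted wild-type libraries were inflammatory cells (CD45+/CD31-, 27 libraries), fibro-adipogenic progenitors (FAP, the CD45-/CD31- stromal cells marked by an EGFP reporter of PDGFRa, 32), endothelial cells (CD45-/CD31+, 31), myogenic progenitors (CD45-/CD31- cells with alpha-7 integrin and VCAM, 16) and pericytes (CD45-/CD31-/Sca1- cells marked by NG2, 10). The first 4 came from PDGFRa EGFP reporter mice on a B6 background and the pericytes from a separate line, the NG2 DsRed reporter, so in this series pericyte identity and reporter line cannot be told apart. Unsorted muscle of wild-type B6 mice gave 21 libraries. CCR2KO libraries came from FAP (18), endothelial cells (14) and myogenic progenitors (9). The labels do not say whether a library came from 1 animal or a pool. The numbers in their sample codes recur, across sorted populations and between the unsorted libraries of a day (on day 6, between 2 of the 3), and what such a number marks is not given, so each p-value measures the spread between libraries, which may be technical.

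In this system IL-1 alpha and IL-1 beta bind IL1R1, which then recruits the co-receptor IL1RAP to signal through MyD88 and NF-kB. The antagonist IL-1RA, from Il1rn, occupies IL1R1 without recruiting the co-receptor, and IL1R2 binds the ligand but cannot signal. IL-33, kept in the nucleus of stromal cells and freed on damage, binds ST2, the product of Il1rl1, which uses the same co-receptor; in injured muscle IL-33 is known for acting on ST2-bearing regulatory T cells.

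Library totals ran from 1236809 to 37740952 counts (median 13736699), so that 3 counts, the floor used here, correspond to a CPM of 2.43 in the shallowest library and 0.0795 in the deepest. CPM is a gene's count per 1000000 counts of its library, and this floor covers counting error only. By overall profile, 152 of the 157 sorted libraries were closest to their own population. The exceptions were endothelial day 1 library 3 and day 3 library 5, closest to FAP, myogenic day 2 library 1 and day 3 library 1, closest to inflammatory cells, and myogenic day 10 library 1, closest to pericytes. Ccr2 lay between 84.9 and 669 CPM in wild-type inflammatory cells and reached 1 CPM in 4 of the 41 CCR2KO libraries, at 1.82 to 7.73 CPM. In these samples fewer cells of a type and less RNA per cell cannot be told apart.

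The agonist genes Il1a and Il1b are neighbours on chromosome 2 and moved together in inflammatory cells, so the bases before their starts are shown. Both genes lie on the minus strand of GRCm38, Il1a at chr2:129299610-129309972 and Il1b at chr2:129364570-129371139. The sequences are RefSeq's for GRCm38.p6, the 60 bases before each start, 5′ to 3′ on the gene's strand, at chr2:129309973-129310032 and chr2:129371140-129371199. Capitals mark TATAAA, the core of a TATA box, in both and TGANTCA, the AP-1 motif, in Il1a.
Il1a: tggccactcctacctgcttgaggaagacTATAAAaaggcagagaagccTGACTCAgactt
Il1b: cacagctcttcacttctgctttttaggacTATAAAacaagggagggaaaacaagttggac
Counted back from the start, TATAAA stood at bases 32 to 27 in Il1a and 31 to 26 in Il1b, and TGANTCA at bases 12 to 6 in Il1a. Of 32851 RefSeq mouse promoters, 12.4% held TATAAA and 6.75% held TGANTCA on either strand of the 250 bases before the start. Il1rn also held TGANTCA, at bases 141 to 135 before its first start, and Il33 also held TATAAA, at bases 203 to 198 before its first start and 29 to 24 before its second. The matches describe letters only, and the motifs were picked after the sequences had been seen.

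Il1b encodes a precursor that caspase-1 can cut into its active form. Il1b had the highest mean of the members in inflammatory cells over the days that all sorted populations share. It had its highest day mean there on day 1. It measured 530.3 and 463 CPM in the 2 undamaged libraries and 3160, 1256, 3021 and 2662 CPM in the 4 day 1 libraries. All 4 day 1 libraries stood above both undamaged ones. The fitted change was 2.75 ± 0.64 on the log2 scale (SE; edgeR quasi-likelihood test, Benjamini-Hochberg adjusted p = 0.0055), and without undamaged library 2 the call was lost (2.61, adjusted p = 0.0779). By day 3 Il1b stood at 239, 246, 175 and 79.3 CPM, below every day 1 and every undamaged library. From day 1 to day 3 it fell by 3.79 ± 0.51 (log2; adjusted p = 7.07e-05), and this call held in each alternative fit. Later values were 88.1 and 103 CPM on day 4, 248, 850.1 and 1008 CPM on day 7, 1416 CPM in the only day 10 library and 416 CPM in the only day 14 library.

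Il1a, the agonist that is active without caspase-1 cleavage and is released by dying cells, followed the same course at a lower level. Its undamaged inflammatory values were 9.98 and 4.73 CPM, and its day 1 values 453, 85.3, 198 and 96.0 CPM. Every day 1 library stood above both undamaged ones. The rise was 5.19 ± 1.32 (log2; edgeR adjusted p = 0.00924), and it missed the threshold without undamaged library 2 (4.72, adjusted p = 0.122). On day 3 Il1a measured 15.8, 18.6, 15.7 and 2.63 CPM, having fallen by 3.98 ± 0.91 (log2; edgeR adjusted p = 0.00614). In the single day 10 library it was again at 80.8 CPM.

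Il1rn, the antagonist, rose in inflammatory cells on day 1. It measured 37.6 and 45.9 CPM undamaged and 1929, 486, 1128 and 900.6 CPM on day 1. All 4 day 1 libraries stood far above both undamaged ones. The change was 5.15 ± 0.77 (log2; edgeR adjusted p = 0.000144) and was called in every alternative fit. Day 2 values ran from 395 to 1068 CPM with a median of 623 CPM over 6 libraries. On day 3 they were 592, 128, 439 and 200.5 CPM, lower than on day 1 by a log2 difference of -1.71 ± 0.49 (edgeR adjusted p = 0.026), and 1 day 3 library stood above the lowest day 1 library. That fall was not called without the libraries whose sample code names another day than their title (-1.31, adjusted p = 0.135).

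**Figure D1:**
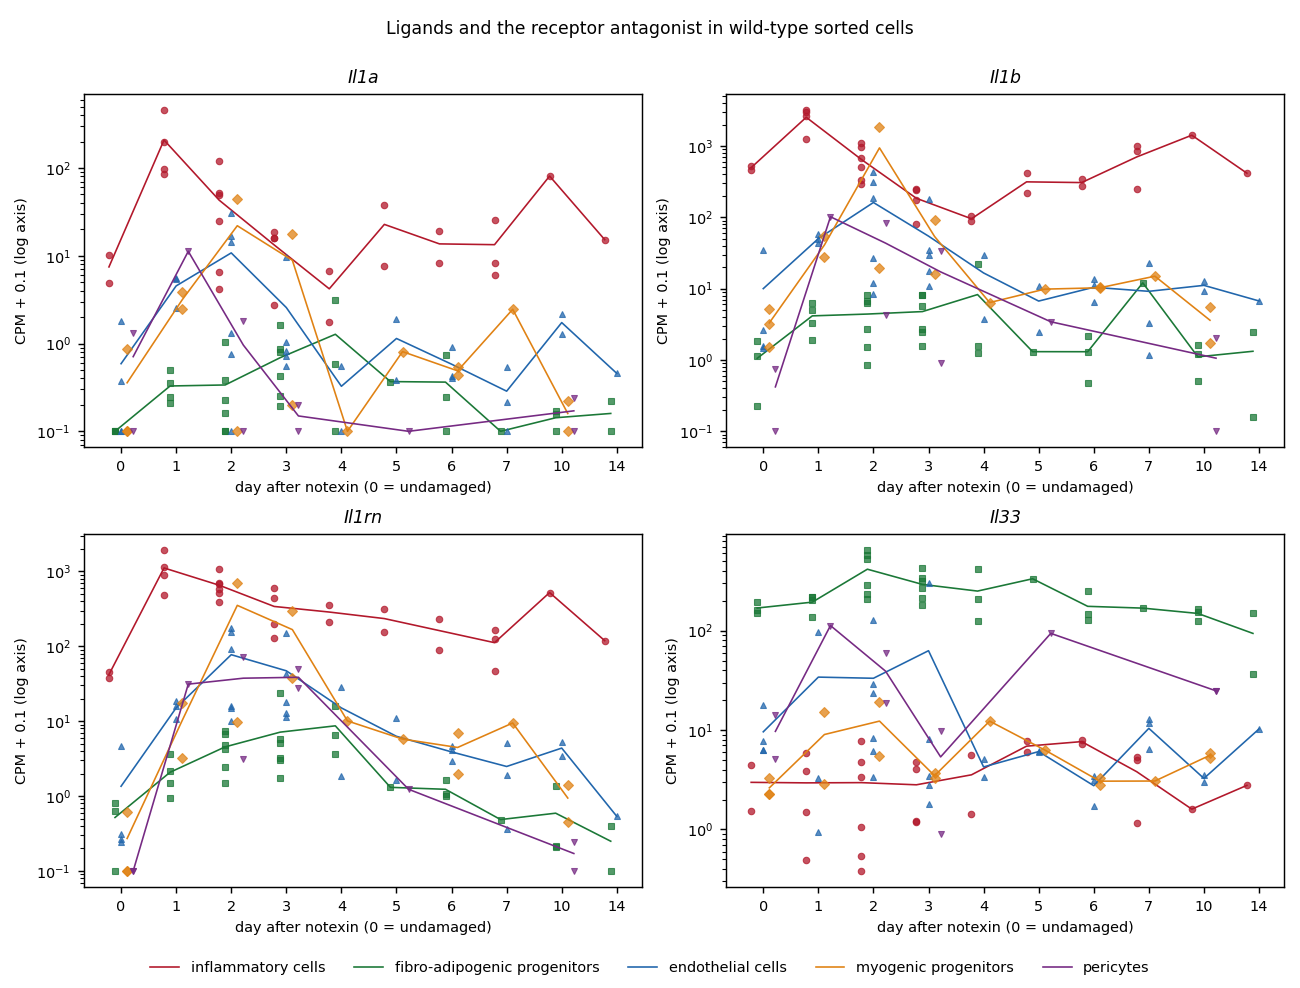
CPM + 0.1 (log axis) of Il1a, Il1b, Il1rn and Il33 against day after notexin in wild-type sorted cells; each point is 1 library and lines join the means of each day. Inflammatory cells hold the highest Il1a, Il1b and Il1rn on most days, with Il1b at 1256 to 3160 CPM on day 1, and FAP hold the highest Il33.

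Antagonist and agonist were also set against each other within each inflammatory library, where library size cancels. Gene length does not cancel, since the exons cover 5535 bases in Il1rn and 1907 in Il1b. The sign of the ratio therefore does not tell which transcript was more abundant. The log2 ratio of Il1rn to Il1b counts was -3.81 and -3.33 undamaged, -0.71, -1.37, -1.42 and -1.56 on day 1, 1.31, -0.94, 1.33 and 1.34 on day 3, and 1.05 and 2.03 on day 4. Il1b counts exceeded Il1rn counts in all 6 libraries of the first 2 times, while Il1rn counts exceeded Il1b counts in 3 of the 4 day 3 libraries and in both of day 4. The day 3 mean was 0.76 ± 1.13 (SD, n = 4) and the day 1 mean -1.27 ± 0.38 (SD, n = 4), a difference of 2.03 that missed the threshold (exact two-sided permutation test, p = 0.0571; the smallest p this design allows is 0.0286). On day 2, between these times, the ratio was -0.92, 0.45, 0.66, 0.43, -0.94 and 1.02. It was below 0 again at -0.38 and -0.50 on day 5 and -0.53 and -1.63 on day 6. On day 7 it was -1.0, -4.18 and -2.62.

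Neutrophil markers fell alongside these genes from day 1 to day 3. The summed level of 7 neutrophil markers was 948 to 2145 CPM on day 1 and 192 to 274 CPM on day 3. Between the 2 days 5 of the 7 fell by the edgeR test (4.93% of all genes fell). Undamaged, the sum stood at 725 and 1853 CPM and overlapped day 1. From undamaged to day 1, 2 of the 7 rose by the edgeR test (8% of all genes rose). Of 8 macrophage markers 1 fell from day 1 to day 3 and none rose. The part of these markers in the course of Il1a, Il1b, Il1rn and Il1r2 was not tested.

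In inflammatory cells 6 of the 8 members were called between undamaged muscle and day 1, against 19.1% of the 15016 genes tested. The members that rose were Il1a, Il1b, Il1rn, Il1r2 and Il1rap (8% of all genes rose), and the one that fell was Il1rl1 (11.1% fell). With 1 library left out at a time, 2 to 5 were called, so the count of 6 needs every library. From day 1 to day 3 all 6 of these fell (4.93% of all genes fell, 10.2% changed in either direction), and 4 to 7 were called with 1 library left out. From day 3 to days 5 to 7 no member was called at 2.52% of all genes by edgeR, with 3 members at an unadjusted p under 0.05, and DESeq2 called 1. Between undamaged muscle and days 10 to 14 none was called at 0.46% of all genes, with 2 at an unadjusted p under 0.05, and DESeq2 again called 1.

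Il33, the nuclear alarmin, was a FAP gene in this series. In FAP it measured 161, 193 and 151 CPM undamaged and 203, 218, 215 and 137 CPM on day 1, and the groups overlapped. Day 2 values ran from 209 to 647 CPM with a median of 408 CPM (6 libraries), and day 3 values from 183 to 431 CPM with a median of 291 CPM (6 libraries). The day 2 libraries fell apart into 3 at 531 CPM or more and 3 at 286 CPM or less. The lower 3 carry R52, an unexplained code in the labels, and the higher 3 do not. Of the higher 3, libraries 2 and 3 carry a code that names day 1. The part of these codes in the split was not tested. No Il33 change with time was called in FAP (day 1 against undamaged 0.14 ± 0.38 on the log2 scale, edgeR adjusted p = 0.834; day 3 against day 1 0.73 ± 0.33, adjusted p = 0.0977).

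Over the 6 days that all 5 sorted populations share, Il33 averaged 258 CPM in FAP, 47.4 CPM in pericytes, 24.7 CPM in endothelial cells, 6.45 CPM in myogenic progenitors and 3.26 CPM in inflammatory cells. FAP stood above the other 4 by 4.90 ± 0.43 on the log2 scale (edgeR, mean over the shared days). Neighbours in this order that did not differ beyond their spread were pericytes and endothelial cells (0.81 ± 0.56, edgeR adjusted p = 0.275) and myogenic progenitors and inflammatory cells (0.55 ± 0.59, adjusted p = 0.523). Among endothelial libraries the 3 highest were 97.9 CPM (day 1 library 3), 128 CPM (day 2 library 6) and 298 CPM (day 3 library 5), and the first and last of these are the libraries closest to FAP, with summed stromal markers of 13580 and 63470 CPM (14540 CPM in day 2 library 6). The part of these markers in the Il33 values was not tested. The other endothelial wild-type libraries lay at 28.7 CPM or below.

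Il1r1, the signalling IL-1 receptor, was also highest in FAP and rose there on day 1. It measured 67.0, 128 and 145 CPM undamaged and 388, 363, 406 and 271 CPM on day 1. Every day 1 library stood above every undamaged one. The rise was 1.61 ± 0.44 (log2; edgeR adjusted p = 0.00761), with an adjusted p of 0.0504 when undamaged library 1 was left out (1.35). On day 2 the 6 libraries ran from 284 to 668 CPM with a median of 431 CPM, and on day 3 from 157 to 338 CPM with a median of 241 CPM. By day 10 Il1r1 was at 148.4, 75.01 and 159.9 CPM, 1 library inside the undamaged range and 2 just above it.

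The population order for Il1r1 was FAP (266 CPM over the shared days), endothelial cells (109 CPM), pericytes (66.9 CPM), myogenic progenitors (48.1 CPM) and inflammatory cells (5.79 CPM). FAP stood above the other 4 by 2.95 ± 0.23 and endothelial cells by 1.27 ± 0.23 (log2, edgeR), and every pair of neighbours differed except pericytes and myogenic progenitors (0.37 ± 0.39, edgeR adjusted p = 0.574). Inflammatory cells, the population with the most Il1b, did not exceed 23.5 CPM of Il1r1 in any library of those days.

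Il1rl1, which encodes the IL-33 receptor ST2, has 2 RefSeq starts on the plus strand of chromosome 1. In mouse, mast cells and other blood cells are known to use mainly the distal promoter and fibroblasts the proximal one, so the 250 bases before each are shown, at chr1:40429320-40429569 for the distal and chr1:40439379-40439628 for the proximal start (RefSeq, GRCm38.p6, plus strand, 5′ to 3′). Capitals mark GATAAG, a motif of the GATA factors.
Il1rl1 distal: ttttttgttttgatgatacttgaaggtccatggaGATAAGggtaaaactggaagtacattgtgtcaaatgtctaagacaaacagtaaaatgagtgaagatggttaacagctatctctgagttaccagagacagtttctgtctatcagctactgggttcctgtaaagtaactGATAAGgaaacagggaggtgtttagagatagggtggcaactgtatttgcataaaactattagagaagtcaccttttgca
Il1rl1 proximal: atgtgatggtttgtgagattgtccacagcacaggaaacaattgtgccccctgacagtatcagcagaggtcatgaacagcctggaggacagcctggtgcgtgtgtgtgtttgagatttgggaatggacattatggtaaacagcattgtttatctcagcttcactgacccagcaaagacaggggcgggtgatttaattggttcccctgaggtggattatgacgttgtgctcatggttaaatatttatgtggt
GATAAG stood at bases 216 to 211 and 79 to 74 before the distal start and not in the 250 bases before the proximal one, and 6.55% of the 32851 promoters held it on either strand. Counts per gene do not tell which start was used, nor do they tell the membrane receptor from the soluble decoy form that the same gene encodes.

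In FAP, Il1rl1 showed a sharp day 1 peak. It measured 2.14, 8.82 and 7.01 CPM undamaged and 329, 314, 304 and 247 CPM on day 1. All 4 day 1 libraries stood far above the 3 undamaged ones. The rise was 5.57 ± 1.01 (log2; edgeR adjusted p = 0.000169). On day 2 Il1rl1 had dropped to 116.5, 43.1, 32.6, 10.6, 8.29 and 10.3 CPM, and on day 3 the 6 libraries ran from 4.05 to 31.9 CPM with a median of 12.9 CPM. The last 3 of the day 2 values come from libraries with the R52 code and the first 3 from libraries without it. Day 2 libraries 2 and 3, at 43.1 and 32.6 CPM, also carry a code that names day 1. The part of these codes in the split was not tested. The fall from day 1 to day 3 was -4.22 ± 0.70 (log2; edgeR adjusted p = 5.89e-05), and no day 3 library reached a day 1 library. Both calls held in each alternative fit and with each library left out in turn. Per kilobase of exon, Il1rl1 in FAP went from 0.869 CPM undamaged to 43.3 CPM on day 1 and 2.17 CPM on day 3, beside 56.1 CPM per kilobase of Il1r1 on day 1. On later days it measured 4.96 to 66.0 CPM on day 4, 4.24 CPM in the only day 7 library, 8.56, 4.78 and 12.3 CPM on day 10 and 4.19 and 2.49 CPM on day 14, so that by day 14 it was back within the undamaged range.

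Markers of the lymphoid and mast cells that carry ST2 were read in the same libraries. The summed level of 13 such markers in FAP was 78.7 to 231 CPM undamaged and 32.0 to 74.6 CPM on day 1. Of this Rora, also a stromal gene, held 72.2 to 212 CPM undamaged and 21.5 to 71.3 CPM on day 1. Foxp3, Il13 and Ms4a2 were at 0 in all 4 day 1 libraries, and 8 of the 13 were under 1 CPM in each of them. Leukocyte markers summed to 2.29 to 7.85 CPM undamaged and 3.74 to 15.4 CPM on day 1. The part of such cells in the FAP Il1rl1 values was not tested.

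Il1rl1 ran the other way in inflammatory cells. It measured 168 and 38.0 CPM undamaged and 16.8, 10.6, 23.9 and 9.39 CPM on day 1, each below both undamaged libraries. The change was -2.43 ± 0.71 (log2; edgeR adjusted p = 0.0197), and without undamaged library 1, the higher of the 2, it was -0.86 with an adjusted p of 0.499. The fall went on to day 3, at 1.41, 6.19, 2.62 and 1.72 CPM (-2.37 ± 0.64, adjusted p = 0.0193), and values of 20.1, 20.4 and 38.3 CPM were read on day 7 and 57.0 CPM on day 10. Mast cell and lymphoid markers summed to 607 and 2002 CPM undamaged, 209.6 to 614 CPM on day 1 and 34.4 to 73.2 CPM on day 3. The undamaged and day 1 sums overlapped. Of the 13, 6 fell on day 1 by the edgeR test (11.1% of all genes fell). Among them were the mast cell proteases Mcpt4 (113 and 849 CPM undamaged) and Cpa3 (73.8 and 479.8 CPM undamaged) and the T cell genes Gata3 and Il2ra. Other medians went up, Hdc from 116 to 238 CPM and Areg from 9.81 to 38 CPM, with undamaged and day 1 values overlapping. The part of the markers in the fall of Il1rl1 was not tested.

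In endothelial cells Il1rl1 was at or below 4.83 CPM in 29 of 31 wild-type libraries. The 2 others were undamaged library 2 at 101 CPM and day 1 library 3 at 156 CPM. The first held 5015 CPM of the ST2-bearing cell markers, led by Mcpt4 at 2059 CPM and Cpa3 at 1256 CPM, where the other undamaged endothelial libraries held 46.2 to 86.8 CPM. The second was closest to FAP. The endothelial change of Il1rl1 from undamaged to day 1 was not called and turned from 1.47 to -4.08 on the log2 scale when day 1 library 3 was left out. Of the pericyte libraries, the only day 1 library stood at 141 CPM, the day 5 library at 20.8 CPM and the rest at 6.95 CPM or below.

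**Figure D2:**
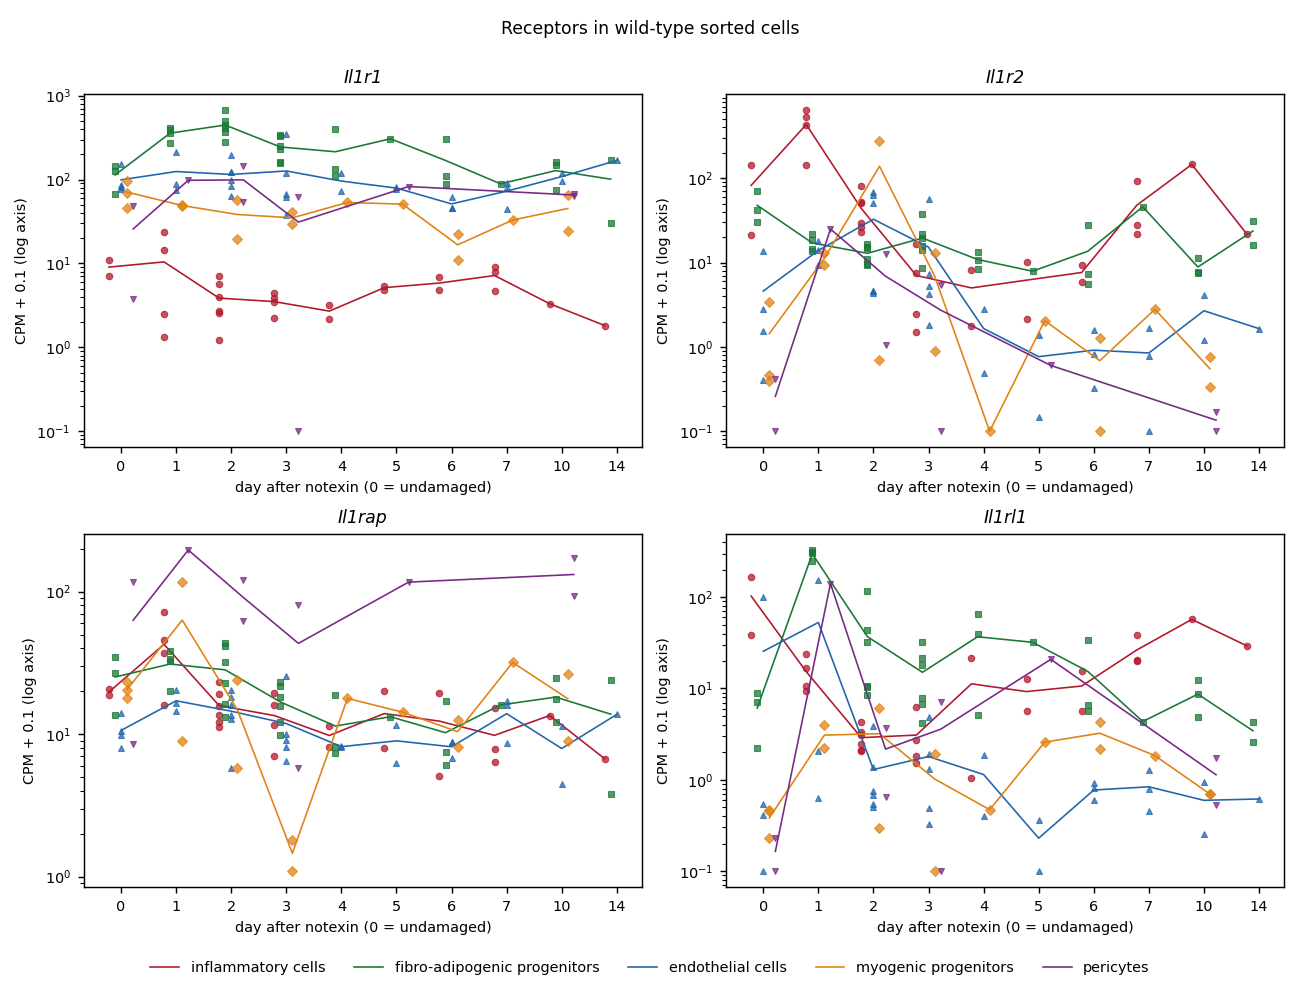
CPM + 0.1 (log axis) of Il1r1, Il1r2, Il1rap and Il1rl1 against day after notexin in wild-type sorted cells; each point is 1 library and lines join the means of each day. FAP Il1rl1 rises from 2.14 to 8.82 CPM undamaged to 247 to 329 CPM on day 1, while the mean of Il1rap is highest in pericytes on each of the 6 days they were measured.

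The decoy receptor Il1r2 moved in opposite directions in 2 populations on day 1. In inflammatory cells it measured 20.9 and 143 CPM undamaged and 424, 142, 636 and 524 CPM on day 1, with 1 day 1 library just under the higher undamaged one. The rise was 2.85 ± 1.01 (log2; edgeR adjusted p = 0.0496), and the call was lost when any library but day 1 library 2 was left out (adjusted p from 0.0575 to 0.247). By day 3 it was at 16.6, 2.34, 7.31 and 1.39 CPM, having fallen by 5.93 ± 0.88 (log2; adjusted p = 0.000202), the largest fitted fall of a member in these cells between these days. In FAP the undamaged values were 30.2, 41.4 and 71.1 CPM and the day 1 values 13.5, 18.4, 14.3 and 21.6 CPM, with no overlap. The FAP fall was -1.53 ± 0.48 (log2; edgeR adjusted p = 0.0193), which was not called without undamaged library 3 (-1.11, adjusted p = 0.131). Per kilobase of exon, FAP thus went from 24.9 CPM of Il1r2 against 17.8 CPM of Il1r1 undamaged to 8.89 CPM against 56.1 CPM on day 1.

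In population order Il1r2 stood at 119 CPM in inflammatory cells, 26.6 CPM in myogenic progenitors, 18.9 CPM in FAP, 11.5 CPM in endothelial cells and 5.82 CPM in pericytes over the shared days. The myogenic mean rested on day 2 library 1, at 276 CPM, since no other myogenic library of those days passed 13.0 CPM. The fit, which weighs days on the log scale, placed FAP above myogenic progenitors (myogenic against FAP -2.0 ± 0.61, edgeR adjusted p = 0.00546).

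Il1rap, the co-receptor that both IL-1 and IL-33 receptors need, was the member that marked pericytes. It measured 8.38 and 118 CPM undamaged, 196 CPM on day 1, 61.7 and 120.3 CPM on day 2, 5.66 and 80.9 CPM on day 3, 117 CPM on day 5 and 92.6 and 171 CPM on day 10. Of these 10 libraries, 8 stood above every FAP, inflammatory and endothelial library of the shared days except the highest inflammatory one, at 71.4 CPM, which exceeded the lower day 2 library. Against the other 4 populations the difference was 2.44 ± 0.23 (log2; edgeR adjusted p = 2.4e-14). The following populations were FAP (22.0 CPM), myogenic progenitors (21.9 CPM), inflammatory cells (19.8 CPM) and endothelial cells (11.7 CPM), and the myogenic mean held 1 library at 117 CPM on day 1. The fit placed inflammatory cells above myogenic progenitors (myogenic against inflammatory -0.79 ± 0.32, edgeR adjusted p = 0.0328). Pericyte libraries also held Schwann cell markers at a summed 475 to 5319 CPM, whose part in the Il1rap level was not tested.

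In inflammatory cells Il1rap was at 18.8 and 20.6 CPM undamaged and at 71.4, 15.9, 46.1 and 37.1 CPM on day 1. One day 1 library lay below both undamaged ones. The rise was 1.52 ± 0.53 (log2; edgeR adjusted p = 0.0459), again lost without any library other than day 1 library 2 (adjusted p from 0.0677 to 0.218). From day 1 to day 3 Il1rap fell by 1.73 ± 0.41 (log2; adjusted p = 0.00825). In FAP it kept between 3.69 and 43.8 CPM in all wild-type libraries with no change called.

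In FAP 3 of the 8 members were called between undamaged muscle and day 1, against 26.6% of 15205 genes, so that 3 of 8 is close to the background. Il1rl1 and Il1r1 rose and Il1r2 fell. From day 1 to day 3, 2 were called (27.1% of all genes): Il1rl1 fell and Il1rn rose. The rise of Il1rn, from a mean of 1.98 to 7.04 CPM (2.08 ± 0.79, edgeR adjusted p = 0.0486), came with a rise of all 6 leukocyte markers and 7 of 8 macrophage markers in the same libraries. Il1rn was highest, at 23.8 CPM, in the day 3 library with the highest leukocyte marker sum, 453 CPM, against 46.5 to 185 CPM in the other 5. From day 3 to days 5 to 7 only Il1rn was called, a fall (-3.0 ± 0.91, edgeR adjusted p = 0.0472; 5.78% of all genes), and 3 leukocyte markers named by the rule fell with it: Fcer1g, Laptm5 and Tyrobp. Both Il1rn calls were lost under RLE scaling (adjusted p = 0.0505 and 0.0559). The part of leukocyte RNA in either change was not tested. No member was called in FAP between undamaged muscle and days 10 to 14 (0.467% of all genes; 1 at an unadjusted p under 0.05, and DESeq2 called 1).

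Across the 5 sorted populations, 5 of 8 members were higher in inflammatory cells than in the other 4, against 17.1% of 17134 genes (called with a log2 fold change above 1). They were Il1b (6.32 ± 0.46), Il1r2 (3.56 ± 0.39), Il1rl1 (2.11 ± 0.44), Il1a and Il1rn. No fold is given for the last 2, since every FAP library of day 0 and the pericyte library of day 5 held no Il1a count and both pericyte libraries of day 0 no Il1rn count. Their means over the shared days were 62.5 CPM of Il1a and 484 CPM of Il1rn in inflammatory cells, against 5.79 and 89.2 CPM in myogenic progenitors, 3.46 and 25.1 CPM in endothelial cells, 2.12 and 18.0 CPM in pericytes and 0.228 and 2.60 CPM in FAP. In FAP 4 of 8 were higher, against 17.6%: Il33, Il1rl1 (3.10 ± 0.43), Il1r1 and Il1r2 (1.55 ± 0.38). Endothelial cells had Il1r1 alone (14.7% of all genes), pericytes Il1rap alone (12.6%) and myogenic progenitors none by edgeR or DESeq2 (10.2%). Called lower than in the other 4, with a log2 fold change below -1, were 3 members in myogenic progenitors (9.65% of all genes), namely Il33, Il1rap and Il1rl1. The same held for 2 members in inflammatory cells (14.4%), Il33 and Il1r1, for Il1b in FAP (6.99%), for Il1rap and Il1rl1 in endothelial cells (6.16%) and for Il1b, Il1r2 and Il1rn in pericytes (9.18%). The edgeR fit could give no usable lower call for Il1a in FAP and pericytes, where whole day groups held no count. DESeq2 called Il1a lower in both (adjusted p = 1.94e-18 and 1.36e-07). The Il1rn call in pericytes includes the day 0 libraries without a count. For Il1rl1 the CPM order was FAP 66.1, inflammatory cells 31.7, pericytes 28.1, endothelial cells 13.6 and myogenic progenitors 1.73, and the first 2 did not differ beyond their spread (0.79 ± 0.58, edgeR adjusted p = 0.263), nor did pericytes and endothelial cells (adjusted p = 0.602) or endothelial cells and myogenic progenitors (adjusted p = 0.605). Pairs of neighbours in the members' population orders were tested too, and 20 of 32 pairs were told apart, 2 of them against the order of the CPM means (Il1r2 in myogenic progenitors and FAP, Il1rap in myogenic progenitors and inflammatory cells). As background, edgeR called 54.4%, 50.8%, 49.9% and 50% of all genes between inflammatory cells and FAP, endothelial cells, myogenic progenitors and pericytes in turn. Between FAP and endothelial cells, myogenic progenitors and pericytes it called 46.6%, 41.2% and 36.1%. Between endothelial cells and the latter 2 populations it called 42.9% and 38.8%, and between these 2 populations 35.7%.

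Single libraries of other CD45-negative gates held much Il1b and Il1rn together with many leukocyte markers. The mean of Il1b over the shared days was 931 CPM in inflammatory cells and 175 CPM in myogenic progenitors, but in the latter 1861 CPM came from day 2 library 1, which held 4813 CPM of leukocyte markers, and 19.5 CPM from the other day 2 library, with 147.5 CPM of them. The same myogenic library held 694 CPM of Il1rn against 9.67 CPM in its partner. In CCR2KO endothelial cells, the 2 libraries with the most Il1b, 2028 CPM (day 1 library 3) and 670.4 CPM (day 7 library 3), also held the most Il1rn, 301 and 293 CPM, and the most leukocyte markers, 916 and 2226 CPM. FAP had the least, with Il1b at or below 21.9 CPM in all 32 wild-type libraries. In FAP all 6 leukocyte markers rose from day 1 to day 3 while Il1b was not called. Between these days Il1b fell in inflammatory cells themselves. In endothelial cells none of the 6 was called on day 1, when Il1rn rose there as it did in inflammatory cells. How far such values come from leukocyte RNA in these gates was not tested.

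**Figure D3:**
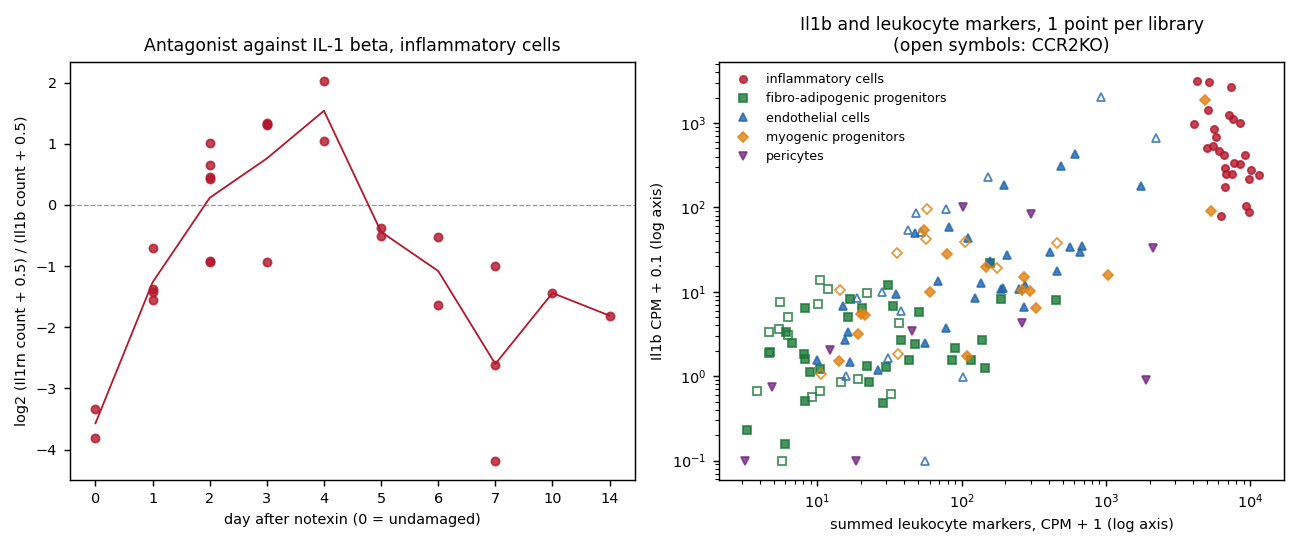
Left, log2 ratio of Il1rn to Il1b counts (0.5 added to each) in inflammatory cells by day, 1 point per library, with a line through day means that lies below 0 on day 1 and above 0 on days 3 and 4. Counts are not divided by gene length, so 0 does not mark equal transcript levels. Right, Il1b CPM + 0.1 against summed leukocyte markers (CPM + 1, both log axes) in all 157 sorted libraries, where the myogenic library with 1861 CPM of Il1b lies beside the inflammatory cells at 4813 CPM of leukocyte markers.

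In endothelial cells only Il1rn was called on day 1 (5.43% of 15603 genes). It stood at 0.207, 4.49, 0.164 and 0.145 CPM undamaged, 2 to 8 counts a library, and at 18.7, 10.5 and 15.8 CPM on day 1 (4.82 ± 1.35 on the log2 scale, edgeR adjusted p = 0.0347). All day 1 libraries were higher, and without the libraries closest to another population the change was 4.84 with an adjusted p of 0.0757. With single libraries left out it ran from 4.26 to 6.37, and the call was kept only without undamaged library 2 (adjusted p = 0.0138). From day 1 to day 3 none was called by edgeR or DESeq2 (5.49% of all genes; 1 at an unadjusted p under 0.05). From day 3 to days 5 to 7, Il1rn (-3.98 ± 0.86) and Il1r2 (-4.90 ± 1.05) fell (both edgeR adjusted p = 0.0147; 1.9% of all genes), together with 4 of 6 leukocyte markers, and the part of these was not tested. At days 10 to 14 neither edgeR (0% of all genes) nor DESeq2 called any, with 1 at an unadjusted p under 0.05.

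No member was called in myogenic progenitors in any of the 4 time comparisons by edgeR (16.1%, 0.311%, 8.83% and 0.479% of 15452 genes), with 2, 2, 3 and 0 members at an unadjusted p under 0.05 and 2, 1, 2 and 0 called by DESeq2. The Il1r1 values there were 96.9, 69.3 and 45.9 CPM undamaged and 49.2 and 48.6 CPM on day 1, which overlap. Nor was any called in pericytes, where the day 1 comparison called 1 gene in all (0.00661%) and the 3 others none (0%) by edgeR. There 4, 3, 1 and 0 members had an unadjusted p under 0.05, and DESeq2 called 2 on day 1 and none later. Those pericyte comparisons rest on 1 or 2 libraries a day.

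Unsorted muscle, which weighs every cell by its RNA, showed most of these genes rising on day 1. All 7 members tested there rose, where 34.9% of 14151 genes rose and 67.1% changed, and Il1a, at 0 in both undamaged libraries and at most 0.0724 CPM on day 1, was not tested. Since both libraries of each of these days carry the same number in their sample codes and differ in its letter, the spread behind these tests may be technical. Il1rl1 went from 1.33 and 0.927 to 23.0 and 17.2 CPM (3.37 ± 0.40 on the log2 scale), Il1r1 from 8.67 and 7.76 to 70.9 and 59.3 CPM (2.21 ± 0.24), Il1r2 from 0.667 and 0.422 to 10.8 and 5.86 CPM (3.15 ± 0.42), and Il1rap from 2.19 and 2.28 to 15.6 and 12.01 CPM (1.84 ± 0.25). For each, both day 1 libraries stood above both undamaged ones. Il1b, from a single count in each undamaged library, reached 21.4 and 10.8 CPM, and Il1rn, from 1 count in the 2 libraries together, 36.6 and 23.1 CPM, so no fold is given for these 2. Il33 rose least, from 6.67 and 6.16 to 18.3 and 14.8 CPM (0.59 ± 0.20, edgeR adjusted p = 0.0154); the fitted folds are relative to TMM scaling, which lowers them against CPM in these libraries, and the Il33 call was lost without day 1 library 1 (0.50, adjusted p = 0.086) or undamaged library 2 (0.54, adjusted p = 0.0921).

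The members then parted in unsorted muscle. From day 1 to day 3, 5 of the 7 were called (41.9% of all genes): Il1b (-3.28), Il1r2 (-3.33), Il1rl1 (-2.07) and Il1rap (-0.68) fell on the log2 scale and Il33 rose (0.69), to 24.4 and 26.1 CPM. Il1rn was at 12.8 and 72.9 CPM on day 3, 1 library below and 1 above both day 1 libraries, and was not called. From day 3 to days 5 to 7, Il1rn (-5.51), Il1b (-1.44), Il1r1 (-1.27), Il1rap (-0.66) and Il33 (-0.61) fell (60.3% of all genes changed). Between undamaged muscle and days 10 to 14 none of the 7 was called by edgeR or DESeq2 (26.5% of all genes changed), with 1 at an unadjusted p under 0.05.

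**Figure D4:**
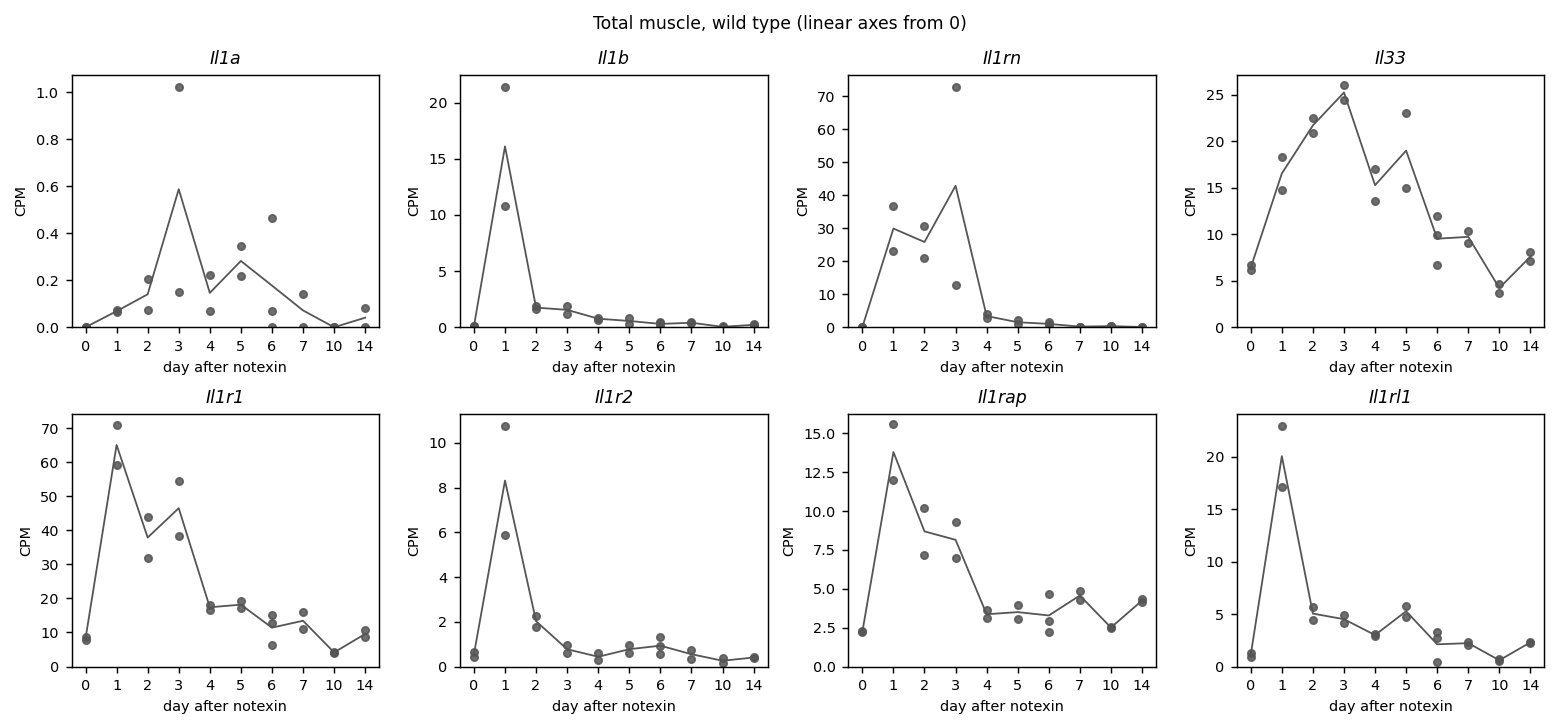
CPM (linear axes from 0) of the 8 members against day after notexin in unsorted wild-type muscle, each point 1 library and lines through day means. Il1b, Il1r1, Il1r2, Il1rap and Il1rl1 have their highest mean on day 1, whereas Il33 is highest on day 3, at 24.4 and 26.1 CPM.

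The CCR2KO comparison asked whether the system differs when monocyte recruitment is impaired. In FAP 1 of the 8 members was called over the 10 days that both genotypes share, Il1rl1 (2.14% of 14654 genes called, 1.17% higher). The CCR2KO values were 45.6 and 1.06 CPM undamaged, 284, 746 and 515 CPM on day 1, 78.6 CPM on day 2 and 104, 25.9 and 33.2 CPM on day 3. Single libraries of day 4, day 5 and day 6 held 323, 109 and 102 CPM. The wild-type libraries of those days held 4.96 to 66.0, 31.9 and 5.52 to 33.9 CPM. The CCR2KO day 4 library carries a code that names day 3, and the wild-type day 5 library a code that names day 4. The day mean was higher in CCR2KO on 10 of 10 days, while the libraries of both genotypes overlapped undamaged and on day 1, day 2, day 3, day 7 and day 10. The difference was 1.68 ± 0.32 (log2, 18 against 32 libraries, edgeR adjusted p = 0.00164). It held with each CCR2KO library left out in turn and without the library that held Ccr2, while wild-type libraries were not left out singly. With the replicate number as a block it was 1.53 (edgeR adjusted p = 0.191). The unexplained R52 code is more frequent among the wild-type FAP libraries than among the CCR2KO ones.

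At day 1 alone the FAP difference in Il1rl1 was 0.93 ± 0.84 (log2, 3 against 4 libraries; edgeR adjusted p = 0.532), with a 95% interval from -0.72 to 2.58, and no member was called by edgeR (0.013% of all genes; 3 at an unadjusted p under 0.05, and DESeq2 called none). Without CCR2KO day 1 library 2, 3 members were called. CCR2KO day 1 values of Il33 were 50.6, 165 and 58.5 CPM and of Il1r1 58.5, 284 and 128 CPM, against 137 to 218 and 271 to 406 CPM in wild type. In those 3 libraries stromal markers summed to 5106 to 17300 CPM, below the 20890 to 30760 CPM of the wild-type ones, and the part of this in the Il33 and Il1r1 values was not tested. Over all shared days the other members were not called in FAP, with Il1r1 at 0.37 ± 0.21, Il1rap at 0.41 ± 0.23, Il33 at -0.21 ± 0.16 and Il1r2 at -0.71 ± 0.24 (adjusted p = 0.101). The ST2-bearing cell markers were at 4.82 to 31.4 CPM on day 1 in CCR2KO and 32.0 to 74.6 CPM in wild type, of which Rora held most, and over the shared days 1 of the 10 tested was called higher in CCR2KO and 1 lower. Their part in the Il1rl1 values was not tested.

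**Figure D5:**
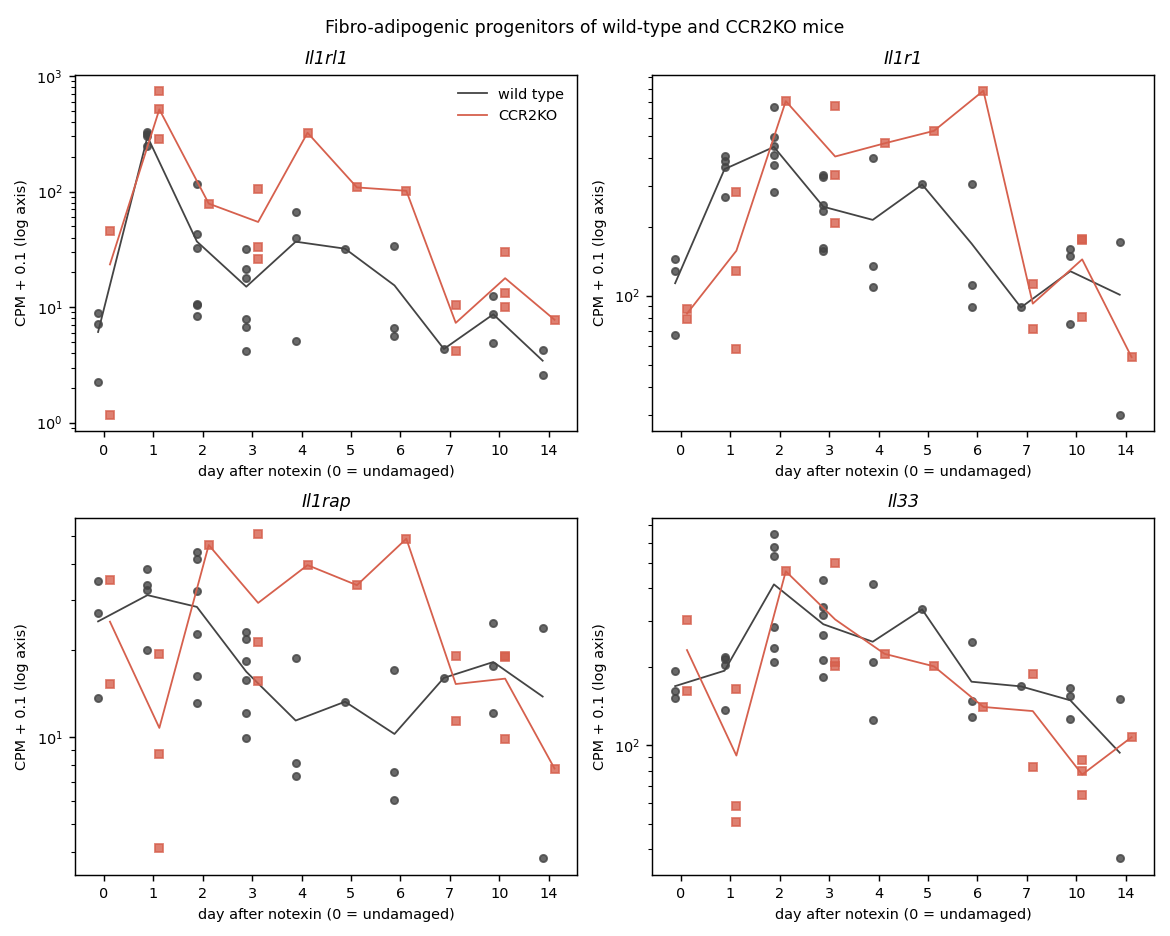
CPM + 0.1 (log axis) of Il1rl1, Il1r1, Il1rap and Il33 in FAP against day after notexin, wild type in grey and CCR2KO in red, 1 point per library with lines through day means. The CCR2KO mean of Il1rl1 lies above the wild-type mean on all 10 days, while the Il1r1, Il1rap and Il33 lines cross.

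No member was called between genotypes in endothelial cells (0.0797% of 15050 genes over shared days; 0% at day 1) or in myogenic progenitors (0.00683% of 14634 genes) by edgeR. At an unadjusted p under 0.05 there were 2 and 3 members in endothelial cells and 4 in myogenic progenitors, and DESeq2 called 1, 0 and 3. In endothelial cells the CCR2KO day mean of Il33 was higher on 0 of 9 days, again without a call. On day 1 and day 3 this rested on the wild-type libraries closest to FAP, at 97.9 and 298 CPM. The other wild-type libraries held 3.21 and 0.84 CPM on day 1 and 1.68 to 7.97 CPM on day 3. CCR2KO libraries held 2.99, 27.3 and 3.91 CPM on day 1 and 4.03 CPM on day 3. In myogenic progenitors the CCR2KO day mean of Il1r1 and of Il1rl1 was higher on 7 of 7 days without reaching the threshold. The highest Il1r1 value there, 309 CPM, was in CCR2KO day 10 library 1, where Il33 was 79.7 CPM, and the wild-type myogenic libraries ran from 10.9 to 96.9 CPM of Il1r1.

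Genes around the system were read from lists. In inflammatory cells 8 of 15 tested IL-1 responsive genes rose on day 1 and none fell (8% of all genes rose; median log2 change 3.68, against -0.12 over all genes): the monocyte chemokines Ccl2 (45.0 to 1905 CPM; 5.79 ± 0.81) and Ccl7 (39.0 to 1508 CPM; 5.62 ± 1.11) among them, with Saa3, an acute phase protein, and Csf3, the granulocyte growth factor. By day 3, 9 of the 15 had fallen (4.93% of all genes fell; median -3.59), including Ccl2, Ccl7, Csf3 and Il6. Of 7 inflammasome genes 2 rose on day 1, the sensor Nlrp3 (94.4 to 903 CPM; 3.65 ± 0.85) and its adaptor Pycard (55.0 to 128 CPM; 1.68 ± 0.34). Among 12 genes of receptor signalling, the adaptor Myd88 (1.32 ± 0.38) and the inhibitor Tollip (1.24 ± 0.26) rose, and Sigirr, an inhibitory receptor of the family, fell (-2.18 ± 0.59), so that 3 of 12 were called against 19.1% of all genes. Of 9 NF-kB feedback genes 1 rose on day 1 (Nfkbia, 2.25 ± 0.63), near the background of 8%, and 4 fell by day 3 (Nfkbia, Nfkbiz, Tnfaip3 and Nfkbie; 4.93% of all genes fell). Il18bp, the decoy of the related cytokine IL-18, rose from 7.01 to 77.8 CPM between day 1 and day 3 (3.52 ± 0.85).

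In FAP 6 of the 15 IL-1 responsive genes rose on day 1 and none fell (12.7% of all genes rose and 26.6% were called; median 1.36, against -0.08 over all genes). They included Saa3 (1.01 to 81.0 CPM; 6.27 ± 1.21), Ccl2 (87.3 to 817 CPM; 3.18 ± 0.63), Lcn2, a siderophore-binding protein (5.41 to 32.8 CPM; 2.58 ± 0.75), and Ccl7 (91.5 to 558 CPM; 2.56 ± 0.68). Of the NF-kB feedback genes 3 of 9 rose: Nfkbie (1.91 ± 0.43), Nfkb2 (1.74 ± 0.42) and Relb (1.10 ± 0.38), against 12.7% of all genes that rose and 26.6% that were called. None of 12 receptor signalling genes and none of 7 inflammasome genes was called. Il18, the IL-18 gene, fell from 33.0 to 6.37 CPM (-2.42 ± 0.50). By day 3, 6 of the 15 responsive genes had fallen (27.1% of all genes changed; median -1.53), among them Ccl2, the prostaglandin synthase Ptgs2, Lif and the neutrophil chemokine Cxcl1. In CCR2KO FAP 4 of the 15 were higher than in wild type over the shared days (1.17% of all genes), including Saa3 (304 against 24.9 CPM; 3.45 ± 0.58), Ccl2 (1.65 ± 0.37) and Ccl7 (1.30 ± 0.29), and none was lower. These genes also answer to other signals, and no library here was treated with IL-1 or IL-33.

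The genes with the profile most like each member were read from Pearson correlations of log2(CPM + 1) over the 45 wild-type population-by-day means (12594 genes), which share libraries and are given as a description. Il1b was most like Nlrp3 (r = 0.973), Osm (0.958) and Ccl3 (0.958), Il1a like Nlrp3 (0.957), Clec4e (0.942) and Arg2 (0.939), and Il1rn like Clec4d (0.980), Adam8 (0.973) and Lilrb4a (0.966). Il33 was most like Cyp1b1 (0.952), Bmper (0.935) and P4ha3 (0.924), and Il1r1 like Cdr2l (0.922), Calu (0.919) and Vangl1 (0.912). Il1rap was most like Lrrn3 (0.860), Ncam2 (0.837) and Cdh19 (0.836). The nearest genes were less close for Il1r2, with Ptgs2 (0.806), Emilin2 (0.803) and Ccl7 (0.798), and least close for Il1rl1, with Camkk2 (0.693), Slc41a2 (0.689) and Ptgs2 (0.661). Among members, r was 0.929 between Il1b and Il1rn, 0.926 between Il1a and Il1b and 0.739 between Il33 and Il1r1.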

How the data were processed

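The deposited tables, 1 per population and genotype, hold the authors' raw counts per gene, whole numbers that were not normalized. Per the labels' protocols, RNA was extracted with RNAzol, made into NEBNext Ultra II stranded mRNA libraries and sequenced as paired reads of 43 bases on a NextSeq 500. Per the submitters' processing notes, bcl2fastq, Bowtie and STAR and the mouse build mm10 (GRCm38) were used. Not given in the sources used here are tool versions and what each did, how reads were assigned to genes, with or without strand, and which gene models served. Counts that fell in no gene or were ambiguous (3.09% to 57.0% and 0.24% to 1.78% of a library) were left out of totals and tests.

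Genes passing filterByExpr were tested within each population by edgeR 4.0.16 (R 4.3.3; TMM scaling, quasi-likelihood test, 1 mean per day, all days sharing 1 estimate of spread), with Benjamini-Hochberg adjustment over all genes and calls at an adjusted p under 0.05. Genotypes were compared over shared days with day as a factor, and populations over days 0, 1, 2, 3, 5 and 10. The Il1rn to Il1b ratio (0.5 added to each count) was tested by exact permutation with scipy 1.17.1 under Python 3.11.15. Other fits used RLE scaling, all genes without a filter, DESeq2 1.42.0, limma 3.58.1 with a preparation block for the populations, a replicate block, the R52 code as covariate, and leaving out libraries singly or by class; those leaving out libraries with over 40% of counts in no gene were chosen after seeing the data. The scripts were tested on simulated data for FAP day 1 against undamaged. There edgeR called 51.1% and 32% of genes with true log2 changes of -2 and 2. At true changes of -1 and 1 it called 0% and 6.25%, so a missing call does not mean no change.

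Groups come from the sample titles. For 2 endothelial columns of the same name the group is known but not the library, and 14 libraries carry a code that names another day than their title. The labels of 81 libraries hold an unexplained code, R52. Among 169 replicate pairs none agreed within sampling noise. The deviations of libraries sharing a replicate number had a median correlation between -0.09 and 0.27 by population, so the numbers were not taken as pairs. All 8 members are named, with up to 4 called genes of at least 10 CPM per gene list and comparison by size of change, and for each member the 3 genes of most similar profile. The members and lists were chosen with earlier results of these data known. Gene positions are GENCODE M21's and promoters RefSeq's (GRCm38.p6), matched for 8 of 8 members.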

Additional observations from a re-analysis of the deposited data

Results flagged for a closer look

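Within groups of 4 to 10 libraries, 18 of 72 sets of member values had 1 library far from the others. The rule marks about 1 in 20 groups of normally distributed values. CPM values are skewed upward and the sets share libraries, so that rate is no yardstick for the 18. In each case the library was the highest, and the cause was not tested.

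Of the endothelial undamaged libraries, library 2 stood apart for Il1a (1.68 CPM, next 0.273), Il1b (34.2 CPM, next 2.56), Il1rn (4.49 CPM, next 0.207), Il33 (18.0 CPM, next 7.58) and Il1rl1 (101 CPM, next 0.436). This is the library with 5015 CPM of markers of ST2-bearing cells. Undamaged endothelial library 3 stood apart for Il1r1 (152 CPM, next 85.3).

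On day 3, endothelial library 1 stood apart for Il1a (9.6 CPM, next 0.953), Il1b (179 CPM, next 35.2), Il1rn (149.8 CPM, next 43.2) and Il1r2 (57.2 CPM, next 7.12). Its leukocyte marker sum of 1737 CPM was the highest of that day. Endothelial day 3 library 5, closest to FAP by profile, stood apart for Il33 (298 CPM, next 7.97), Il1r1 (348 CPM, next 118) and Il1rap (25.5 CPM, next 9.97). Endothelial day 2 library 6 stood apart for Il33 (128 CPM, next 28.7) and Il1rl1 (3.80 CPM, next 1.27).

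In FAP, day 2 library 1 stood apart for Il1rl1 (116.5 CPM, next 43.1) and Il1a (0.949 CPM, next 0.283), and day 3 library 1 for Il1rn (23.8 CPM, next 5.71).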

How the results depend on the processing

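Counts of members called moved as follows, and the cause was not tested. DESeq2 gave 1 for inflammatory cells at days 5 to 7 against day 3 and at days 10 to 14 (0 in edgeR), 1 for FAP at days 10 to 14 (0), 4 for endothelial cells at days 5 to 7 (2), 2, 1 and 2 for the first 3 myogenic comparisons (0 each), 2 for pericytes on day 1 (0), 2, 1 and 3 for CCR2KO FAP, endothelial and myogenic cells (1, 0 and 0) and 2 for endothelial cells against the others (1). With no filter on low counts, the counts were 1 for inflammatory cells at days 5 to 7, 1 and 0 for FAP on day 3 (2) and days 5 to 7 (1), and 2, 1 and 2 for myogenic cells. RLE scaling gave 1 and 0 for the same FAP comparisons and 1 for myogenic cells at days 5 to 7. With the R52 code as covariate there were 1 for inflammatory cells at days 5 to 7, 1 for FAP on day 3, 2 for endothelial cells on day 1 (1) and 1 for myogenic cells at days 5 to 7. Without libraries whose code names another day there were 3 for inflammatory cells on day 1 (6), 1 for FAP on day 3 and 0 at days 5 to 7. Without libraries closest to another population there were 0 for endothelial cells on day 1, 2 for myogenic cells on day 1 and 2 for pericytes against the others (1).

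The replicate block gave 3 for inflammatory cells on day 1, 1 and 0 for FAP on day 3 and days 5 to 7, 4 for endothelial cells at days 5 to 7, 1 and 1 for myogenic cells on day 1 and at days 5 to 7, 0 for CCR2KO FAP and 2 for endothelial cells against the others. It turned the sign of Il33 in endothelial cells at days 5 to 7 (0.10, from -3.55) and of Il33 in pericytes against the others (-0.16, from 0.69). The libraries share a replicate number only.

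With single libraries left out, the counts in the order of the 4 time comparisons ran 2 to 5, 4 to 7, 0 to 0 and 0 to 1 in inflammatory cells, 2 to 3, 1 to 2, 0 to 1 and 0 to 1 in FAP, 0 to 3, 0 to 1, 0 to 3 and 0 to 0 in endothelial cells, 0 to 0, 0 to 1, 0 to 0 and 0 to 0 in myogenic cells, 0 to 0, 0 to 4, 0 to 3 and 0 to 0 in pericytes and 6 to 7, 4 to 6, 3 to 6 and 0 to 0 in unsorted muscle. They ran 1 to 2 for CCR2KO FAP, 0 to 3 for it at day 1 and 0 to 0 elsewhere between genotypes. The ratio difference ran from 1.83 to 2.59. Il1rl1 in endothelial cells ran from -4.08 (without day 1 library 3) to 7.66 on day 1 (1.47 with all) and from -5.83 to 0.54 (without day 1 library 3) on day 3 (-4.90 with all). Endothelial Il33 at days 5 to 7 ran from -3.89 to 0.45 (without day 3 library 5), and Il1rn in unsorted muscle on day 3 from -1.08 (without day 3 library 2) to 1.32 (0.57 with all). Leaving out the libraries closest to another population gave the same -4.08 and 0.45. Of the other alternatives, 185 counts kept within 1.5 times and 39 moved. The 1 or 2 pericyte libraries a day limit what could be called there.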
